A study of Sus scrofa with 50 samples.

Results

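NCTR1, KLRG1, SLAF7, PERF, NKG7, TBX21 and EOMES are genes that natural killer (NK) cells and cytotoxic T cells use to recognise and kill other cells. Each was taken as 1 Swiss-Prot entry: the TPM of all transcripts whose best protein hit carried that entry name were added up. All 7 entries were found, out of 14532 in the annotation, and they rested on 12 of 57085 assembled transcripts. Stranded mRNA libraries of heart, kidney, liver, lung and spleen came from 10 Korean minipigs, 1 library per animal and tissue and 50 in all. Animals S0235, S0242, S0276, S0309 and S0326 were of the ET type, and S0349, S0355, S0377, S0384 and S0385 of the L type. The labels give no genotype, treatment, age or sex and do not say what sets the types apart. The deposited unit is TPM, a share of 1000000 transcripts that allows for transcript length, so levels of different genes can be compared. Differences are given on log2(TPM + 1) with the SE from limma, group values as mean TPM ± SD, and a difference was called at a Benjamini-Hochberg adjusted p below 0.05 over all genes tested. Values listed per library follow the order of the animals just given. Read numbers were not given, so the depth behind each value is unknown.

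NK cells carry activating and inhibitory receptors, and the balance of their signals decides whether a target cell is attacked. A killing NK cell or CD8 T cell releases granules that hold perforin, which opens the target's membrane, and granzymes, proteases that enter through it. The T-box transcription factors T-bet and eomesodermin direct the development of these cells and switch on their granule and cytokine genes. Spleen is a large store of NK cells and lymphocytes, and lung holds many that circulate with the blood. Among the 7 genes, NCTR1 (NKp46) is an activating receptor that marks NK cells, KLRG1 is an inhibitory lectin-like receptor of mature effector cells, and SLAF7 (SLAMF7, CRACC) is a receptor of the SLAM family that is also made by plasma cells. PERF is perforin, and NKG7 is a membrane protein of cytotoxic granules. TBX21 encodes T-bet and EOMES encodes eomesodermin.

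SLAF7, PERF, TBX21 and EOMES each rested on a single transcript, whose match to the entry spanned 335, 528, 535 and 707 residues at 57.8%, 76.9%, 94.0% and 90.0% identity. NCTR1 and KLRG1 had 2 transcripts each, and NKG7 had 4. In spleen, the longer NCTR1 transcript of 1349 bases carried 82.6% of that gene's mean TPM, the KLRG1 transcripts 49.7% and 50.3%, and the NKG7 transcript of 1184 bases 89.6%. The shorter NCTR1 transcript matched 77 residues at 58.4% identity and had no predicted protein hit, so its assignment is uncertain. The same holds for the shorter KLRG1 transcript, of 814 bases, which matched 53 residues at 77.4% identity and had no predicted protein hit. In lung it carried 56.0% of the mean KLRG1 TPM. RefSeq places 6 of the 7 genes on Sscrofa11.1: NCR1 (for NCTR1) at chr6:59092258-59099992, KLRG1 at chr5:62506001-62523969, PRF1 (for PERF) at chr14:73515306-73520256, NKG7 at chr6:58496089-58497827, TBX21 at chr12:23996415-24009353 and EOMES at chr13:14209590-14216184. NCR1 lies in a stretch of related immunoglobulin-like receptor genes, next to FCAR at chr6:59074979-59084798 and KIR2DL1 at chr6:59056497-59068225. Reads shared between such relatives could have been split by the quantification.

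The tissue labels held against listed markers in 49 libraries. Summed surfactant, secretoglobin and aquaporin 5 transcripts reached 20657 to 49542 TPM in ET-type and 20232 to 41261 TPM in L-type lungs, against at most 72.2 TPM elsewhere. Spleen markers (TLX1, NKX23, ITAD, CR2) summed to 593 to 919 and 836 to 909 TPM in the spleens of the types. The kidney library of ET-type S0235 was the exception: its 5 kidney markers summed to 0.636 TPM, against at least 978 TPM in the other kidneys, and it was rich in lymphocyte transcripts. It is left out of the limma tests below, apart from alternatives that say they keep it, and described on its own. Nothing in the labels says that libraries of a group came from separate litters or days, so p-values measure the spread between these animals.

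Taken over both types, all 7 genes were highest in spleen, and all 7 were lower in lung than in spleen. By limma each of these 7 differences was called, where 12.4% of all genes were called lower in lung. The gap ran from -0.83 ± 0.32 for KLRG1 to -2.92 ± 0.19 for TBX21, while over all genes tested the median was 0.51, higher in lung. With median-ratio rescaling, which moved the median of all genes to 0.068, the 7 differences ran from -1.22 for KLRG1 to -3.22 for TBX21. In bulk tissue, fewer NK and T cells and less RNA per cell cannot be told apart, here and in every result below.

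NCTR1 stood at 1.65, 0.208, 1.001, 0.529 and 1.14 TPM in the ET-type lungs and at 4.26, 6.46, 2.91, 5.08 and 7.06 TPM in the L-type lungs. In spleen it stood at 15.6, 4.83, 12.8, 32.1 and 6.25 TPM in ET-type and 10.3, 16.5, 27.7, 21.8 and 32.5 TPM in L-type animals. Each animal had more in its spleen than in its lung, although L-type lungs with over 5 TPM reached the level of the lowest spleen, that of ET-type S0242. Over both types the lungs had 3.03 ± 2.53 TPM and the spleens 18.04 ± 10.1 TPM (n = 10 each), a difference of -2.31 ± 0.25, adjusted p = 4.87e-11.

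KLRG1 gave 1.46, 2.42, 41.2, 0.582 and 3.89 TPM in ET-type and 2.74, 2.13, 1.81, 3.07 and 2.87 TPM in L-type lungs. The lung of ET-type S0276 stood more than 10 times above every other lung. Both transcripts were high there, at 16.1 and 25.0 TPM, where the other 9 lungs reached at most 2.15 and 2.11 TPM. In spleen, KLRG1 stood at 5.78, 3.20, 1.77, 2.66 and 2.13 TPM in ET-type and 15.2, 7.32, 16.0, 9.85 and 19.2 TPM in L-type animals. Within the ET type the mean was higher in lung, at 9.91 ± 17.5 TPM against 3.11 ± 1.59 TPM in spleen, with medians of 2.42 and 2.66 TPM. L-type animals had 2.52 ± 0.528 TPM in lung and 13.5 ± 4.83 TPM in spleen. With both types together, lung lay below spleen in 8 of 10 animals, with the opposite order in S0276 and S0326, and the ranges overlapped. The difference was -0.83 ± 0.32, adjusted p = 0.0210, the smallest of the 7, and it lost its call with a pseudocount of 0.1 (-1.06, adjusted p = 0.0638), with the kidney library of S0235 kept in the fit (0.0966) or without animal S0235 (0.113), S0242 (0.0588), S0309 (0.0805) or S0377 (0.0598).

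SLAF7 had 1.09, 0.0397, 1.37, 0.103 and 1.13 TPM in ET-type and 0.630, 0.455, 0.429, 1.31 and 2.61 TPM in L-type lungs. The spleens had 1.76, 2.93, 1.32, 1.52 and 1.096 TPM in ET-type and 8.21, 6.14, 13.02, 8.60 and 13.2 TPM in L-type animals. The L-type spleens all lay above every lung, while the ET-type spleens overlapped with the lungs, and S0276 and S0326 had slightly more in lung than in spleen. The difference between the tissues was -1.56 ± 0.16, adjusted p = 8.30e-12.

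Perforin was a low transcript in lung, at 0.953, 0.323, 0.343, 0.600 and 0.693 TPM in ET-type and 1.05, 1.42, 1.34, 0.971 and 1.52 TPM in L-type animals. In spleen PERF reached 4.50, 2.58, 3.23, 5.99 and 1.37 TPM in ET-type and 4.11, 4.73, 7.22, 4.68 and 6.35 TPM in L-type animals. In all 10 animals the spleen was higher, and only the spleen of ET-type S0326 fell into the range of the lungs. The difference was -1.46 ± 0.16, adjusted p = 4.08e-11.

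NKG7 was the most abundant of the 7 in every group of both tissues. It stood at 27.1, 53.0, 41.1, 17.2 and 39.3 TPM in ET-type and 91.9, 47.6, 55.4, 36.4 and 152 TPM in L-type lungs. The spleens had 177, 144, 87.2, 172 and 119 TPM in ET-type and 162, 153, 199.9, 167 and 234 TPM in L-type animals. Again all 10 animals had more in spleen, and L-type lungs of S0349 and S0385 reached the lower spleens. The tissues differed by -1.71 ± 0.28, adjusted p = 1.05e-06.

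TBX21 separated the tissues completely. Lungs had 1.04, 0.242, 0.749, 0.866 and 0.967 TPM in ET-type and 1.78, 1.81, 1.96, 1.44 and 3.58 TPM in L-type animals. Spleens had 18.5, 15.6, 10.1, 17.8 and 4.95 TPM in ET-type and 17.4, 24.4, 26.6, 20.2 and 21.9 TPM in L-type animals. The lowest spleen, of ET-type S0326, lay above the highest lung, of L-type S0385, and the difference was -2.92 ± 0.19, adjusted p = 6.76e-18.

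EOMES had 1.45, 0.210, 0.337, 0.382 and 0.825 TPM in ET-type and 0.938, 1.04, 1.66, 0.792 and 1.34 TPM in L-type lungs. In spleen it had 7.27, 5.05, 3.997, 8.17 and 2.26 TPM in ET-type and 12.2, 7.05, 12.1, 15.1 and 11.4 TPM in L-type animals. Here too every lung lay below every spleen, with a difference of -2.22 ± 0.15, adjusted p = 8.39e-18. TBX21 and EOMES were thus the 2 of 7 genes without overlap between lung and spleen, where 3.4% of all genes had every lung below every spleen. TBX21 exceeded EOMES in 10 of 10 spleens and in 9 of 10 lungs, all but the lung of ET-type S0235.

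**Figure D1:**
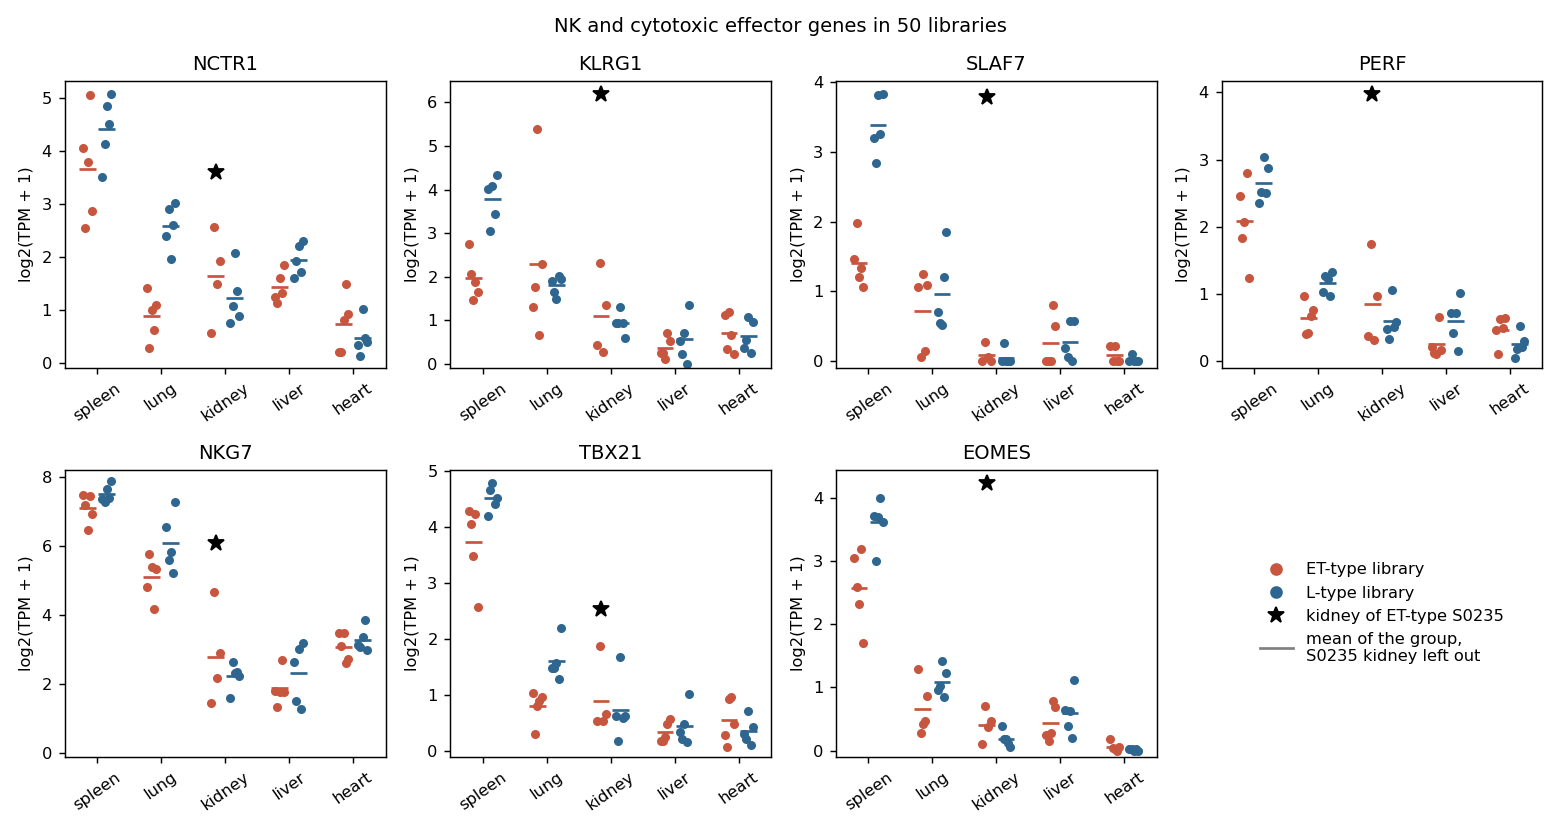
Levels of the 7 genes in 50 libraries, as log2(TPM + 1) on the y axis, by tissue on the x axis; points are single libraries of ET-type (red) and L-type (blue) animals, short lines are group means and the star is the kidney library of ET-type S0235. Taken over both types, all 7 genes were highest in spleen, while the ET-type mean of KLRG1 was higher in lung than in spleen. All 10 lungs lay below all 10 spleens for TBX21 and EOMES, and the star lay above the other 9 kidneys for each gene.

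Other genes of the same machinery were looked up from lists, given as log2 differences with the adjusted p in parentheses. Of 15 other NK and related surface receptors tested, 12 were called lower in lung and 0 higher, with a list median of -1.27. Among them were LAIR1, an inhibitory collagen receptor, with -3.16 (2.59e-19), LY9, a SLAM family receptor, with -4.17 (3.54e-17), FCG3A, the Fc receptor CD16 of antibody-dependent killing, with -3.52 (5.42e-17), and NKG2A, an inhibitory lectin-like receptor, with -1.96 (2.64e-14). Of 14 receptor adaptors and proximal kinases, 10 were lower and 1 higher in lung: VAV had -3.59 (3.10e-19), the kinase KSYK (Syk) -2.61 (6.37e-18), the adaptors LCP2 -2.85 (2.33e-17) and TYOBP (DAP12) -3.07 (7.90e-15), while the gene that was higher was LAT, with 0.86 (0.00250). The 7 genes thus moved the same way as most of both lists, and the median of the 7 was -1.71.

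Granule genes were less uniform than PERF and NKG7. Of 10 genes of granule contents, 6 were called lower in lung, among them SPB9, an inhibitor of granzyme B, at -2.47 (5.04e-14), SRGN, the proteoglycan that packs granules, at -3.18 (8.10e-12), GRAM (granzyme M) at -1.64 (8.50e-12) and CATW at -1.82 (2.65e-11), while 2 were called higher, the granzymes GRAB with 1.66 (2.66e-09) and GRAH with 1.42 (2.47e-06). Of 10 genes that move and fuse granules, 3 were lower and 3 higher: RB27A, a Rab GTPase of secretory granules, had 2.65 (1.25e-14), STXB2 1.25 (4.57e-09) and UN13D 1.73 (1.89e-07), against -1.92 (3.41e-08) for WASP, a regulator of actin. Of 7 death ligands and effector cytokines, 5 were lower, led by TNFA with -2.78 (8.22e-20), CCL4 with -2.25 (1.79e-11) and XCL1 with -1.69 (3.47e-08), and 1 was higher, TNFB (lymphotoxin alpha) with 0.46 (0.00907). Of 14 transcription factors of effector lymphocytes other than TBX21 and EOMES, 8 were lower and 2 higher, with STAT4 at -2.23 (9.76e-19), RUNX3 at -2.54 (8.58e-18), ZEB2 at -2.50 (7.18e-13) and ID2 at -1.92 (1.42e-09) against NFIL3 at 2.20 (2.20e-09) and GATA3 at 1.84 (1.32e-08). Of 15 cytokine receptors and homing genes, 9 were lower, including the interleukin 12 receptor chain I12R1 (-1.54, 1.06e-13) and the fractalkine receptor CX3C1 (-3.35, 6.72e-13), and 2 higher, IL15 (1.30, 4.20e-07) and S1PR1 (0.97, 0.00793). Across all genes 12.4% were lower and 53.1% higher in lung.

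Markers of other cell types differed between lung and spleen as well. All 11 tested T cell markers and all 10 B and plasma cell markers were called lower in lung, and summed T cell markers ran from 21.5 to 135 TPM in lung and from 49.4 to 531 TPM in spleen. Of the T cell markers, CD8B was the one at 0 in any lung or spleen. The part of these cells in the differences of the 7 genes was not tested, and PERF, NKG7, TBX21 and EOMES are also made by cytotoxic T cells.

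In heart, kidney and liver the 7 genes were scarce, with NKG7 and NCTR1 as the main exceptions. All 7 were called higher in spleen than in heart (40.1% of all genes), than in kidney (21%) and than in liver (40.3%). Every heart lay below every spleen for 7 of 7 genes (14.3% of all genes), every liver for 7 of 7 (15.9%) and every kidney for SLAF7, NKG7, TBX21 and EOMES, 4 of 7 (5.72%). The kidney of ET-type S0276 overlapped with low spleens for NCTR1, KLRG1 and PERF. These 21 calls held in every alternative that was run.

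The lowest, median and highest of 10 hearts were 0.0978, 0.347 and 1.79 TPM for NCTR1, 0.165, 0.520 and 1.27 TPM for KLRG1 and 0, 0 and 0.167 TPM for SLAF7. For PERF they were 0.0358, 0.312 and 0.564 TPM, for NKG7 5.09, 7.66 and 13.5 TPM, for TBX21 0.0499, 0.297 and 0.965 TPM and for EOMES 0, 0.0159 and 0.129 TPM. NKG7 was the only one of the 7 above 2 TPM in any heart. SLAF7 and EOMES were listed at 0 in some hearts.

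In the 9 kidneys the same 3 values were 0.485, 1.55 and 4.90 TPM for NCTR1, 0.208, 0.920 and 3.96 TPM for KLRG1 and 0, 0 and 0.205 TPM for SLAF7. They were 0.243, 0.420 and 2.35 TPM for PERF, 1.75, 3.996 and 24.5 TPM for NKG7, 0.134, 0.539 and 2.66 TPM for TBX21 and 0.0364, 0.138 and 0.628 TPM for EOMES. The kidney of ET-type S0276 was the highest of the 9 for all 7 genes.

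In the 10 livers they were 1.19, 2.16 and 3.92 TPM for NCTR1, 0, 0.309 and 1.53 TPM for KLRG1 and 0, 0.0912 and 0.745 TPM for SLAF7. They were 0.0805, 0.252 and 1.02 TPM for PERF, 1.45, 2.48 and 8.09 TPM for NKG7, 0.117, 0.231 and 1.02 TPM for TBX21 and 0.107, 0.429 and 1.18 TPM for EOMES. The liver of L-type S0385 was the highest of the 10 for 6 of the 7 genes, all but SLAF7, and NCTR1 was above 1 TPM in every liver. EOMES exceeded TBX21 in 9 of the 10 livers, the reverse of their order in spleen.

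Taken over both types, lung stood second after spleen, with margins that depended on how the libraries were scaled. All 7 genes were called higher in lung than in heart (70.2% of all genes), by 2.41 ± 0.28 for NKG7, 1.37 ± 0.32 for KLRG1 and 1.13 ± 0.25 for NCTR1. Most NKG7 in heart lay in 2 long transcripts, described further on, of which the longest is of doubtful assignment. Without both, the difference of NKG7 was 4.65, adjusted p = 1.34e-17, while rescaling brought it as low as 1.22. With median-ratio rescaling 3 of the 7 were called and with quantile normalization 2, where PERF (-0.20) and TBX21 (-0.080) turned below 0. Every heart lay below every lung for NKG7 and EOMES, 2 of 7 (33.5% of all genes). Lung exceeded liver for all but NCTR1, 6 of 7 (68.5%), by 3.49 ± 0.28 for NKG7, and by median-ratio rescaling for 3, with EOMES at -0.054 and NCTR1 at -0.72, adjusted p = 0.00712. NKG7 was the 1 of 7 with every liver below every lung (29.9%). Lung exceeded kidney for KLRG1, SLAF7, NKG7 and EOMES, 4 of 7 (46.1%), with 3.07 ± 0.29 for NKG7, and none of the 7 separated the 2 tissues (12.3% of all genes had every kidney below every lung). For NCTR1 the difference of lung was 0.30 ± 0.26, adjusted p = 0.322 from kidney and 0.040 ± 0.25, adjusted p = 0.890 from liver.

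Among the 3 organs with low levels, few of the 7 genes differed. NKG7 was called higher in heart than in kidney (0.66 ± 0.29, adjusted p = 0.0428) and than in liver (1.08 ± 0.28, adjusted p = 0.00112), the 1 of 7 to do so, against 12.8% and 24.6% of all genes. NCTR1 (-0.83 ± 0.26, adjusted p = 0.00425) and PERF (-0.36 ± 0.16, adjusted p = 0.0492) were lower in heart than in kidney, 2 of 7 (51.4%). The NKG7 call against kidney held in 13 of 23 alternatives, was lost in 8 and turned around in 2. The PERF call held in 10 of 22 alternatives and was lost in 11: with median-ratio rescaling, with the highest transcript per entry, without mitochondrial genes and haemoglobin and in 8 of 10 fits that left out an animal. With quantile normalization its sign changed (0.066). In kidney, the shorter NCTR1 transcript of uncertain assignment carried 70.8% of that gene's mean TPM, at 1.36 ± 1.34 TPM, while the longer one had 0.563 ± 0.601 TPM there and 0.409 ± 0.587 TPM in heart. With the highest transcript per entry, which for NCTR1 is the longer one, heart and kidney differed by -0.14, adjusted p = 0.692, and the call was lost. NCTR1 (-1.09 ± 0.25, adjusted p = 0.000226) and EOMES (-0.48 ± 0.15, adjusted p = 0.00522) were lower in heart than in liver, 2 of 7 (27.1%). Between kidney and liver limma called 0 of 7, where 50.6% of all genes were called higher in kidney and 13.6% in liver. On the longer NCTR1 transcript alone kidney was called lower than liver (-0.95, adjusted p = 0.00250) and than lung, which stood higher by 0.70 (adjusted p = 0.0249). For TBX21, 1 of the 7, the unadjusted p of limma between kidney and liver was below 0.05 (0.0338), where 66.9% of all genes had one. TBX21 was called there in 9 of 22 alternatives and turned around in 1. With the animal as replicate block, among the 9, the difference was 0.44, adjusted p = 0.0358.

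With both types together, the order of tissues was therefore spleen, lung, then kidney and heart for KLRG1. Liver came last, and the last 3 were not told apart. NCTR1 ran from spleen to lung, liver and kidney, which were not told apart, and then heart, with the place of kidney resting on the shorter transcript. The place of lung for NCTR1 differed between the types. ET-type lungs averaged 0.906 TPM, below liver (1.74) and kidney (2.49). L-type lungs averaged 5.15 TPM, above liver (2.92) and kidney (1.47). For SLAF7 and EOMES lung came second, and kidney, liver and heart lay at similar low levels, apart from the calls just given. For PERF and TBX21 lung lay above liver and heart and was not told apart from kidney. Kidney in turn was not told apart from liver for either gene, nor from heart for TBX21. Alternatives did call kidney against liver, in 4 of 21 for PERF and in 9 of 22 for TBX21. NKG7 ran from spleen to lung to heart, ahead of kidney and liver.

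The place of heart in the order of NKG7 rested on 2 long transcripts. The 4 NKG7 transcripts measured 1184, 1871, 2872 and 5059 bases, and RefSeq's NKG7 gene spans 1739 bases. The 2 transcripts above 2000 bases held a median of 87.4% of the NKG7 TPM in heart, and at least 60.7% in each of 10 hearts. In kidney that median was 37.7%, in liver 6.08%, in spleen 1.76% and in lung 1.02%. The longest, assembled from an L-type heart, matched only 54 residues of the NKG7 entry, and its predicted protein matched the entry CLDN2 instead. The transcript of 2872 bases matched 162 residues at 76.5% identity, as both shorter ones did, and its predicted protein matched NKG7. It carried 51.7% of the mean NKG7 TPM in heart, and the longest 36.1%. Leaving out both, as done below, thus also drops a transcript that matched NKG7 well. In RefSeq the gene CLDND2 begins 1874 bases past the end of NKG7, at chr6:58499702-58501179. In the 2 shorter transcripts alone, hearts had 1.02 ± 0.772 TPM, livers 3.60 ± 2.41 TPM and kidneys 4.96 ± 7.16 TPM. Without the 2 long transcripts, an alternative chosen after seeing the data, NKG7 was lower in heart than in kidney (-1.19, adjusted p = 0.00134) and than in liver (-1.12, adjusted p = 0.00241), so both calls turned around. Between lung and spleen the value was -1.70, adjusted p = 7.71e-06, and between lung and heart it was the 4.65 given above.

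**Figure D2:**
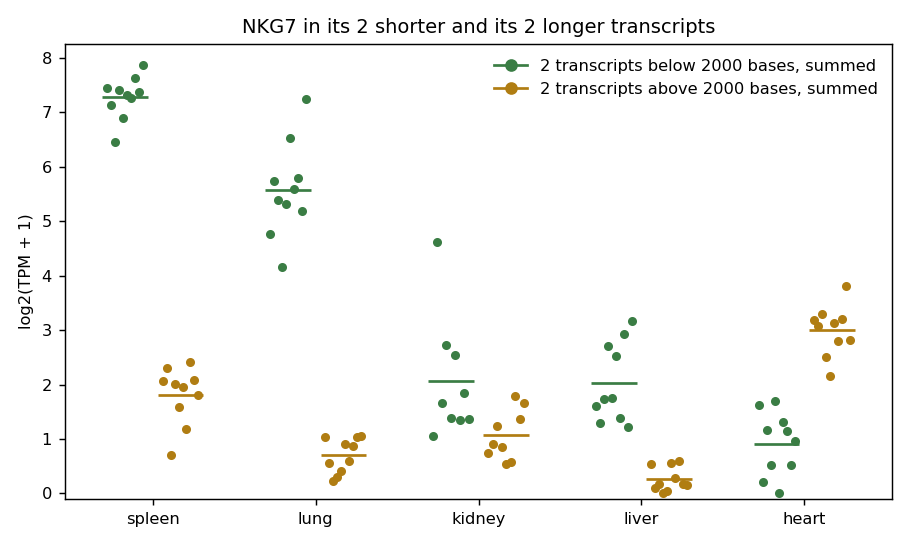
NKG7 in its 2 shorter and its 2 longer transcripts, as log2(TPM + 1) on the y axis, by tissue on the x axis; each point is a library (10 per tissue, 9 kidneys) and lines are means. The shorter transcripts made up nearly all NKG7 in spleen and lung, while in heart the longer ones stood higher.

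The kidney library of ET-type S0235 had all 7 genes above the other 9 kidneys. It held 71.7 TPM of KLRG1, where the other kidneys ran from 0.208 to 3.96 TPM and the 10 spleens from 1.77 to 19.2 TPM. EOMES, at 17.9 TPM, and PERF, at 14.7 TPM, also exceeded every spleen. SLAF7, at 12.8 TPM, and NCTR1, at 11.07 TPM, fell within the range of the spleens. NKG7, at 67.1 TPM, and TBX21, at 4.81 TPM, stayed below every spleen. The library's own animal had 18.5 TPM of TBX21 and 5.78 TPM of KLRG1 in its spleen. EOMES thus exceeded TBX21 in this library, which held for 0 of the 10 spleens. CD3E, a chain of the T cell receptor complex, stood at 553 TPM there, against 189 TPM in the highest spleen, and UROM, made by kidney tubules, at 0.179 TPM against at least 229.6 TPM in the other kidneys. These are values of 1 library, with no replicate and no p-value.

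**Figure D3:**
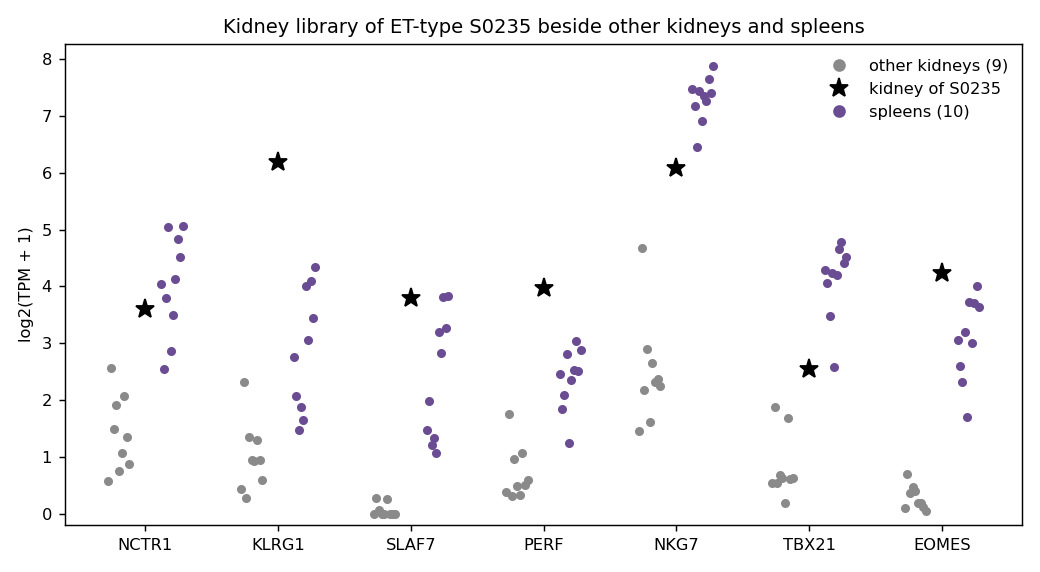
The 7 genes (x axis) in the kidney library of ET-type S0235 (star), the other 9 kidneys (grey) and the 10 spleens (purple), as log2(TPM + 1) on the y axis. The star lies above all grey points for every gene and above all purple points for KLRG1, PERF and EOMES.

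In spleen, all 7 genes had lower means in ET-type than in L-type animals, and limma called 3 of them: SLAF7, KLRG1 and EOMES. Of all genes 22.2% were called in either direction, with a median difference of -0.47 over all genes, so a lower level in ET-type spleens was common. SLAF7 had 1.73 ± 0.718 TPM in ET-type against 9.83 ± 3.13 TPM in L-type spleens (n = 5 each), a difference of -1.98 ± 0.25, adjusted p = 0.0124. KLRG1 had 3.11 ± 1.59 against 13.5 ± 4.83 TPM (-1.82 ± 0.30, adjusted p = 0.0213). For SLAF7 and KLRG1, 2 of 7 genes, every ET-type spleen lay below every L-type spleen, where 15.5% of all genes did so. EOMES had 5.35 ± 2.40 against 11.6 ± 2.90 TPM (-1.04 ± 0.29, adjusted p = 0.0333), with the lowest L-type spleen, S0355, below the ET-type spleens of S0235 and S0309.

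The other 4 genes did not pass in spleen. TBX21 had 13.4 ± 5.75 TPM in ET-type and 22.1 ± 3.56 TPM in L-type spleens (-0.79 ± 0.30, adjusted p = 0.0680), and with all libraries in 1 fit and the animal as replicate block it was called (adjusted p = 0.0331). PERF had 3.53 ± 1.78 and 5.42 ± 1.31 TPM (-0.57 ± 0.29, adjusted p = 0.137), and NCTR1 had 14.3 ± 10.9 and 21.8 ± 8.79 TPM (-0.75 ± 0.44, adjusted p = 0.193). NKG7 had 139.8 ± 37.5 and 183 ± 33.4 TPM (-0.41 ± 0.21, adjusted p = 0.138). NKG7 turned to the other sign, 0.17, with median-ratio rescaling. The spleen of ET-type S0326 was the lowest of the 10 for SLAF7, PERF, TBX21 and EOMES.

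The size of these differences depended on the scaling of the spleen libraries. Haemoglobin alpha and beta together took 213432 ± 94241 TPM of 1000000 in ET-type and 70960.4 ± 67277 TPM in L-type spleens. With haemoglobin and mitochondrial genes left out and TPM rescaled, SLAF7 kept a difference of -1.86, adjusted p = 0.0152 and KLRG1 of -1.67, adjusted p = 0.0250, while EOMES lost its call (-0.85, adjusted p = 0.0575). With median-ratio rescaling, which brought the median of all genes to about 0, they were at -1.52, adjusted p = 0.0143 for SLAF7, -1.33, adjusted p = 0.0329 for KLRG1 and -0.53, adjusted p = 0.189 for EOMES. SLAF7 was called in all 20 alternatives, with differences from -2.46 to -1.50. KLRG1 lost its call with quantile normalization (0.0536) and without L-type S0377 (0.0643) or S0385 (0.0589), and EOMES in 9 of 20 alternatives, those without S0242, S0276, S0326, S0377, S0384 or S0385 and the 3 rescalings.

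T cell markers moved with the types in spleen. Their 14 genes summed to 49.4 to 165 TPM in ET-type and 141 to 531 TPM in L-type spleens. Of 11 tested, 9 were called lower in ET-type, against 22.2% of all genes called in either direction, with CD3E at -1.46 (0.0344). CD8B was at 0 in 1 or more ET-type spleens. SLAF7 is also a plasma cell gene, and B and plasma cell markers summed to 1049.6 to 2264 and 2161 to 2946 TPM, with 4 of 10 called lower. Taken relative to CD3E, the ranges of the types overlapped in spleen for all 7 genes: SLAF7 had 0.0321 to 0.0639 of the CD3E level in ET-type and 0.0454 to 0.138 in L-type spleens, and KLRG1 0.0443 to 0.132 and 0.0520 to 0.188. The median ratio was lower in ET-type spleens for SLAF7 (0.0406 against 0.0943) and KLRG1 (0.0644 against 0.164). It was higher in ET-type spleens for NCTR1, PERF, NKG7, TBX21 and EOMES. Of 8 myeloid markers, the calprotectin chains S10A9, with 2.03 (0.0240), and S10A8, with 1.12 (0.0331), were called higher in ET-type spleens without overlap, and C163A, a macrophage scavenger receptor, lower, with -1.39 (0.0337). The myeloid sums ran from 598 to 1352 TPM in ET-type and from 1343 to 2496 TPM in L-type spleens. The part of T, B, plasma and myeloid cells in the differences of SLAF7, KLRG1 and EOMES was not tested.

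Other genes of the NK and cytotoxic machinery were also called lower in ET-type spleens, and none higher. These counts stand beside 22.2% of all genes called there in either direction. Among surface receptors 4 of 15 were lower: the SLAM family members SLAF5, with -1.47 (0.0281), and SLAF6, with -1.57 (0.0446), the activating receptor NKG2D, with -1.29 (0.0297), and CRTAM, with -0.82 (0.0309). Among signalling genes 4 of 14 were lower: ZAP70 -1.36 (0.0285), LCK -1.15 (0.0366), LAT -1.16 (0.0421) and CD3Z -0.82 (0.0465), which are all part of T cell receptor signalling too. Of granule contents, 4 of 10 were lower, with CATW at -1.03 (0.0283), CATC at -1.12 (0.0315), GRAH at -1.43 (0.0317) and GRAK at -1.33 (0.04997), and of granule exocytosis 4 of 10, led by LYST with -1.13 (0.0233) and UN13D with -1.15 (0.0240). TNF10 (TRAIL), at -1.48 (0.0240), was the 1 of 7 among death ligands and cytokines. Of transcription factors 7 of 14 were lower, with STAT4 at -0.97 (0.0270) and LEF1 at -1.97 (0.0275), and of cytokine receptors and homing genes 4 of 15, with IL18R at -1.11 (0.0305) and IL2RB at -1.08 (0.0367). The 7 genes had a median of -0.79, these 7 lists had medians from -0.86 to -0.40 and all genes -0.47.

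In lung, NCTR1 was lower in ET-type animals. It had 0.906 ± 0.558 TPM in ET-type against 5.15 ± 1.67 TPM in L-type lungs (n = 5 each), a difference of -1.70 ± 0.28, adjusted p = 0.0450, and was the 1 of 4 tested genes that limma called, where 0.213% of all genes were called. No ET-type lung reached the lowest L-type lung. The longer NCTR1 transcript had 0.252 ± 0.499 TPM in ET-type and 3.97 ± 1.79 TPM in L-type lungs, while the shorter had 0.653 ± 0.671 and 1.19 ± 1.70 TPM. The call lay close to the threshold. It was lost with a pseudocount of 0.1 (0.0862), with median-ratio rescaling (0.0507), quantile normalization (0.0614), without mitochondrial genes and haemoglobin (0.0622) and without any 1 animal other than L-type S0377 (0.124 without S0355 and 0.128 without S0384), while the difference stayed between -2.55 and -1.51. With all libraries in 1 fit and the animal as replicate block the adjusted p was 0.00254.

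TBX21 had 0.774 ± 0.317 TPM in ET-type and 2.12 ± 0.843 TPM in L-type lungs, again without overlap, but did not pass (-0.80 ± 0.24, adjusted p = 0.152). NCTR1 and TBX21 were thus 2 of 4 tested genes with every ET-type lung below every L-type lung, where 3.67% of all genes tested were so ordered. NKG7 had 35.5 ± 13.8 and 76.6 ± 47.0 TPM (-0.99 ± 0.39, adjusted p = 0.249). KLRG1 had the higher mean in ET-type lungs, 9.91 ± 17.5 against 2.52 ± 0.528 TPM (0.48 ± 0.71, adjusted p = 0.782), which rested on S0276. Without that animal the difference was -0.30, adjusted p = 0.692. SLAF7, PERF and EOMES had means below 1 TPM over the lungs and were not tested. PERF had 0.582 ± 0.262 against 1.26 ± 0.238 TPM without overlap, EOMES 0.641 ± 0.508 against 1.15 ± 0.347 TPM and SLAF7 0.748 ± 0.627 against 1.09 ± 0.925 TPM.

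Markers of leukocytes in general had smaller sums in ET-type lungs. The 5 leukocyte markers together ran from 51.1 to 114 TPM in ET-type and from 113 to 256 TPM in L-type lungs, with differences below 0 for 5 of 5 and none called, and T cell markers from 21.5 to 75.1 and 46.1 to 135 TPM. Relative to CD3E, NCTR1 had 0.0615 to 0.180 in ET-type and 0.0806 to 0.716 in L-type lungs, and the ranges overlapped for it and for the other 6 genes. The median ratio was lower in ET-type lungs for NCTR1 (0.101 against 0.323), PERF, NKG7, TBX21 and EOMES, and higher for KLRG1 and SLAF7. All 8 tested myeloid markers had differences below 0, with none called, and sums of 216 to 887 TPM in ET-type and 587 to 1681 TPM in L-type lungs. CR2, a complement receptor of B cells and follicular dendritic cells, was called lower without overlap (-2.47, 0.0228). CD22, a B cell receptor, was at -1.18 (0.0782), the surfactant protein PSPC at -2.41 (0.138) and haemoglobin HBA and HBB at 1.86 (0.274) and 2.10 (0.277), none of them called. The part of leukocyte numbers and of these other cells in the difference of NCTR1 was not tested.

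Among the other lists limma called 1 gene in lung, the adaptor LAT, with -1.003 (0.0360), out of 14 signalling genes. Of the receptors, the lowest p belonged to LAIR1 (-0.73, 0.194) and FCG3A (-0.76, 0.201), of granule contents to CATW (-1.13, 0.0672) and CATC (-0.71, 0.221), and of granule exocytosis to WASP (-0.78, 0.0888) and COR1A (-0.83, 0.189), none of them called. CCL5 (-0.94, 0.0603) and CCL3 (-0.92, 0.363) among cytokines, GATA3 (-1.62, 0.103) and LEF1 (-0.76, 0.236) among transcription factors, and I12R1 (-0.92, 0.0952) and IL2RG (-1.14, 0.123) among cytokine receptors did not pass either. The 4 tested genes of the 7 had a median of -0.89, against -0.15 for all genes.

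No difference between the types was called for any of the 7 in heart, kidney or liver. In heart NKG7 alone was tested (-0.21 ± 0.23, adjusted p = 0.623), and 0.0238% of all genes were called. In kidney, with 4 ET-type against 5 L-type libraries, 3 were tested, NCTR1 (0.41 ± 0.41, adjusted p = 0.727), KLRG1 (0.15 ± 0.39, adjusted p = 0.888) and NKG7 (0.56 ± 0.54, adjusted p = 0.719), and 0.00376% of all genes were called. NKG7 in kidney went to -0.061 without ET-type S0276, the highest of the 9. In liver NCTR1 had 1.74 ± 0.579 TPM in ET-type against 2.92 ± 0.824 TPM in L-type animals (-0.52 ± 0.24, adjusted p = 0.758) and NKG7 had -0.44 ± 0.41, adjusted p = 0.929, with 0.00933% of all genes called. By unadjusted p below 0.05 there was 1 of these 6, NCTR1 in liver (0.0486). In the 7 other lists limma called 0 of 48 genes in heart, 0 of 62 in kidney and 0 of 48 in liver, with 30, 4 and 2 at an unadjusted p below 0.05, where 22.2%, 8.7% and 6.58% of all genes had one.

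Over each animal's mean of heart, liver, lung and spleen, 0 of 7 genes were called (0.0104% of all genes), with differences from -0.31 ± 0.14 for PERF to -0.68 ± 0.20 for NCTR1. By limma 6 of 7 had an unadjusted p below 0.05, where 18.5% of all genes had one. With the mean of lung and spleen alone, where 9.86% of all genes were called, 4 of 7 were: NCTR1 (-1.22, adjusted p = 0.0334), SLAF7 (-1.11, adjusted p = 0.0277), TBX21 (-0.79, adjusted p = 0.0369) and EOMES (-0.73, adjusted p = 0.0436). A test of the interaction, in 49 libraries with the animal as block, asked whether the difference between the types varied between tissues. It was called for 4 of 7 genes, where 13.3% of all genes were called. SLAF7 had F = 16.5 (adjusted p = 3.36e-05), NCTR1 F = 6.78 (0.00929), EOMES F = 6.23 (0.0128) and KLRG1 F = 4.51 (0.0372). TBX21 (0.0640), PERF (0.0672) and NKG7 (0.246) were not called. Near 0 TPM the log2(TPM + 1) scale leaves little room for a difference between the types. SLAF7 averaged 0.040, 0.050 and 0.23 TPM in heart, kidney and liver, and EOMES 0.027, 0.23 and 0.46 TPM. KLRG1 was also low there, at 0.64, 1.20 and 0.43 TPM. For such genes a difference in spleen can by itself give an interaction, so the test cannot decide whether the types differ less in those tissues. EOMES lost the call in 9 and KLRG1 in 12 of 21 alternatives, with median-ratio rescaling among them (0.213 and 0.159). SLAF7 lost it with a pseudocount of 0.1 (0.0746) and NCTR1 without L-type S0385 (0.0730).

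**Figure D4:**
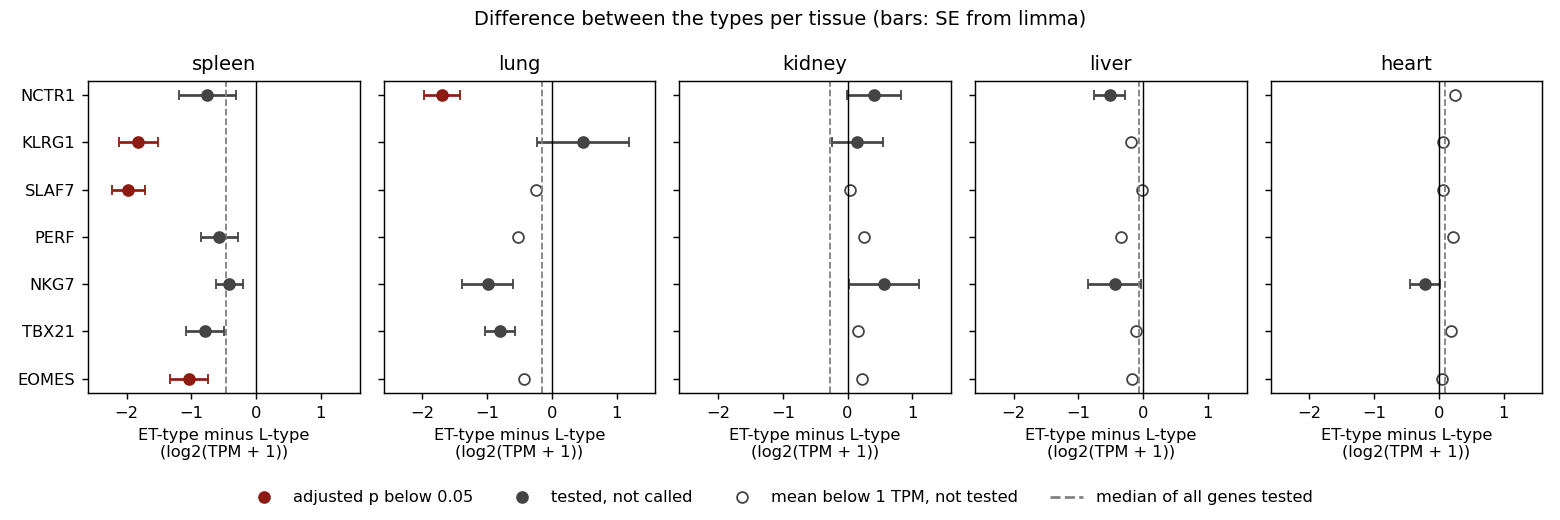
Differences of the 7 genes (y axis) between the types in each tissue, on the log2(TPM + 1) scale and below 0 where ET-type animals were lower (x axis); filled points with bars are limma estimates ± SE, red where called, open points are genes below a mean of 1 TPM that were not tested, and the dashed line is the median of all genes tested. SLAF7, KLRG1 and EOMES in spleen and NCTR1 in lung were called, and no gene in the other tissues.

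Across 49 libraries the 7 genes followed each other. Between 2 of them Pearson's r of log2(TPM + 1) ran from 0.63 to 0.97 over 21 pairs, with a median of 0.84. The highest pair was PERF and TBX21 and the lowest NCTR1 and KLRG1. These libraries share animals and tissues. With the mean of each group of tissue and type removed, r ran from 0.19 to 0.82, with a median of 0.45. In levels, the 3 entries most like NCTR1 among 14105 were TR19L (0.90), RHG04 (0.90) and GPR31 (0.90), those most like KLRG1 IL16 (0.85), DCLK1 (0.85) and TN13B (0.84), and those most like SLAF7 CRTAM (0.94), GRAPL (0.94) and TNFL8 (0.93). PERF was closest to SAMD3 (0.95), GFI1 (0.94) and BIN2 (0.94), and NKG7 to CD68 (0.97), ITB2 (0.97) and SPI1 (0.97). Of these, CD68 is on the list of myeloid markers. TBX21 was closest to TLR21 (0.97), MARH1 (0.97) and STAT4 (0.97), and EOMES to NKG2A (0.97), KLRE1 (0.97) and CD1B1 (0.96).

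With group means removed, so that only the spread between animals within a tissue and type counted, other entries came first. PERF was then closest to GRAA (0.82), TRAR1 (0.80) and GIMA7 (0.78), where GRAA is granzyme A, and TBX21 to GRAH (0.82), GIMA7 (0.77) and RHG30 (0.74), where GRAH is granzyme H. NCTR1 was closest to CCL5 (0.73), TXK (0.72) and H2B1K (0.71), and CCL5 is a chemokine of effector lymphocytes. EOMES was closest to SH21A (0.76), LCK (0.76) and CD3G (0.76), which belong to T cell signalling. SLAF7 was closest to PPA5 (0.74), IL3RB (0.72) and GIMA8 (0.71), NKG7 to ITB2 (0.85), PILRB (0.84) and SPI1 (0.83) and KLRG1 to CAC1C (0.75), CPT1C (0.70) and DYN1 (0.69). For KLRG1 both measures include the lung of ET-type S0276, at 41.2 TPM, and the weight of that library in them was not tested. These values describe the 49 libraries and carry no test.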

How the data were processed

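The authors deposited TPM for 57085 assembled transcripts, 1000000 per library, made with Salmon 1.10.0 after Trimmomatic 0.36 per the submitters' processing notes, which also name Sscrofa11.1. TRIzol extraction and a stranded mRNA kit are per the labels' protocols. A gene is the sum over 1 Swiss-Prot entry (hits for 63.9% of transcripts) or an unmatched transcript, 35133 in all. No read counts were used, so no count model was run.

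Differences were tested with limma 3.58.1 in R 4.3.3 (trend, empirical Bayes) on log2(TPM + 1), which understates changes of low genes. Tests of type took genes averaging 1 TPM or more in the tissue. Tissue contrasts took those averaging 1 TPM or more in any tissue, in 49 libraries and 10 groups. P-values were adjusted by Benjamini-Hochberg over all genes tested. The interaction fit had the animal as block (consensus correlation 0.121). Tissues are paired by animal in the labels: deviations from group means correlated at 0.179 on average over 96 pairs of tissues of 1 animal (76 above 0.1). Between animals of 1 type the average was -0.0452. Deviations within a group cancel out, which ties this value to the first, so it is no separate reference.

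The 7 genes and all lists were chosen with earlier results of these data known. Per list, up to 4 genes with the lowest p were named, or 2 where none was called, and others that complete a count of 5 or fewer were named after their values were seen. Sums, likeness (3 entries per gene) and figures were made in Python 3.11.15 (numpy 2.4.6, matplotlib 3.10.9, pandas 2.3.3). Simulated data with known changes were run through the type fit of each tissue, lung against spleen and the interaction. The fit of the mean over tissues was not simulated. For a log2 change of 1 between the types, 38% of changed genes were recovered in lung and heart, 34% in spleen, 18% in liver and 3% in kidney. False calls made up 4.12% (kidney) to 7.44% (liver) of all calls. Differences of that size could thus be missed, above all in kidney and liver. Alternatives left out each animal in turn, changed the pseudocount to 0.1, the filter to none or 5 TPM, the scaling, the gene definition or the block, or kept the kidney library of S0235.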

Additional observations from a re-analysis of the deposited data

Results flagged for a closer look

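In groups of 5 libraries, a library was set apart when its gap to the nearest other, on log2(TPM + 1), exceeded Dixon's limit. Such a library was held by 5 of 70 groups of a gene, tissue and type, where chance gives about 1 in 20. Of these, only PERF in liver does not follow from how the groups were made up, so the number of groups is not a result. In kidney, ET-type S0235 stood apart for SLAF7, at 12.84 TPM against at most 0.205 TPM in the other 4 ET-type kidneys, and for EOMES, at 17.9 TPM against at most 0.628 TPM. That library was already shown apart for its lymphocyte transcripts, so both values restate that choice. SLAF7 was also read at 0.078 TPM in the heart and 0.198 TPM in the kidney of L-type S0355 while the other 4 L-type libraries of each tissue were listed at 0, and beside such a group any value above 0 exceeds the limit. PERF stood at 0.5788 TPM in the liver of ET-type S0309 against 0.0805 to 0.165 TPM in the other ET-type livers. KLRG1 in the lung of ET-type S0276, at 41.2 TPM against at most 3.89 TPM in the other ET-type lungs, was not set apart on this log2 scale.

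The interaction test of limma with the animal as block was called for SLAF7 (F = 16.48, adjusted p = 3.36e-05), NCTR1 (F = 6.776, adjusted p = 0.00929), EOMES (F = 6.232, adjusted p = 0.0128) and KLRG1 (F = 4.51, adjusted p = 0.0372). Of 21 alternatives, the call was lost in 12 for KLRG1, in 9 for EOMES and in 1 each for SLAF7 and NCTR1. For SLAF7, EOMES and KLRG1 the difference was widest in spleen, and for NCTR1 in lung. In heart, kidney and liver SLAF7 averaged at most 0.23 TPM, EOMES at most 0.46 TPM and KLRG1 at most 1.20 TPM. At such low levels the log2(TPM + 1) scale leaves little room for a difference, and the test cannot decide whether the types differ less there.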

How the results depend on the processing

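The calls of all 7 genes between spleen and heart, kidney and liver and of 6 of 7 between lung and spleen held in every alternative. Counts that moved by over 1.5 times started from these numbers of the 7 genes: 1 for type in lung, 0 for type over the mean over tissues, 3 for type in spleen, 3 for heart against kidney, 4 for the interaction, 0 for kidney against liver, 7 for lung against heart, 4 for lung against kidney and 6 for lung against liver, and from these of all genes: 62 for type in lung, 5339 for type in spleen and 4357 for the interaction. With the kidney library of S0235 kept, the number of the 7 genes called was 2 for the interaction, 3 for kidney against liver, 1 for lung against kidney and 3 for lung against liver, and of all genes 2044 for the interaction. Differences of the other sign were 0.17 for EOMES (kidney against liver), -0.13 for PERF (lung against kidney) and 0.17 for SLAF7 (kidney against liver). With median-ratio rescaling, the number of the 7 genes called was 0 for type in lung, 2 for the interaction, 2 for kidney against liver, 3 for lung against heart, 2 for lung against kidney and 3 for lung against liver, and of all genes 34 for type in lung, 764 for type in spleen and 2432 for the interaction. Differences of the other sign were -0.054 for EOMES (lung against liver), -0.058 for NCTR1 (lung against kidney), -0.72 for NCTR1 (lung against liver), 0.17 for NKG7 (type in spleen), -0.057 for NKG7 (kidney against liver), -0.047 for PERF (lung against kidney) and 0.011 for SLAF7 (heart against kidney). With quantile normalization, the number of the 7 genes called was 0 for type in lung, 1 for type in spleen, 1 for heart against kidney, 2 for the interaction, 3 for kidney against liver, 2 for lung against heart, 2 for lung against kidney and 3 for lung against liver, and of all genes 28 for type in lung, 47 for type in spleen and 1856 for the interaction. Differences of the other sign were -0.44 for EOMES (lung against liver), 0.21 for KLRG1 (heart against kidney), -0.067 for NCTR1 (lung against kidney), -0.96 for NCTR1 (lung against liver), -0.23 for NKG7 (kidney against liver), 0.066 for PERF (heart against kidney), -0.20 for PERF (kidney against liver), -0.20 for PERF (lung against heart), -0.13 for PERF (lung against kidney), -0.33 for PERF (lung against liver), 0.074 for SLAF7 (heart against kidney), -0.040 for SLAF7 (lung against liver), 0.078 for TBX21 (heart against kidney), -0.053 for TBX21 (kidney against liver), -0.080 for TBX21 (lung against heart), -0.0017 for TBX21 (lung against kidney) and -0.054 for TBX21 (lung against liver). With a pseudocount of 0.1, the number of the 7 genes called was 0 for type in lung, 5 for heart against kidney, 1 for the interaction and 3 for kidney against liver, and of all genes 19 for type in lung. Differences of the other sign were -0.028 for KLRG1 (type in kidney) and -0.13 for NCTR1 (lung against liver). With the highest transcript per entry, the number of the 7 genes called was 1 for heart against kidney and 1 for kidney against liver, and of all genes 40 for type in lung and 3496 for type in spleen. Differences of the other sign were -0.25 for NCTR1 (lung against liver), -1.12 for NKG7 (heart against kidney), -1.61 for NKG7 (heart against liver) and -0.49 for NKG7 (kidney against liver). Without mitochondrial genes and haemoglobin, the number of the 7 genes called was 0 for type in lung and 4 for kidney against liver, and of all genes 36 for type in lung and 2121 for type in spleen. Differences of the other sign were -0.014 for NCTR1 (lung against liver) and 0.089 for PERF (heart against liver). Without the 2 long NKG7 transcripts, chosen after seeing the data, differences of the other sign were -1.19 for NKG7 (heart against kidney) and -1.12 for NKG7 (heart against liver). With all libraries in 1 fit and the animal as replicate block, all genes called numbered 1112 for type in lung. With a filter of 5 TPM, the number of the 7 genes called was 0 for type in lung and 1 for kidney against liver, and of all genes 15 for type in lung and 2691 for type in spleen. With no replicate block, all genes called numbered 2226 for the interaction. With the mean of lung and spleen, the number of the 7 genes called was 4 for type over the mean over tissues. With the animal as replicate block in the tissue contrasts, the number of the 7 genes called was 1 for kidney against liver. Leaving out 1 animal at a time gave 0 to 1 for type in lung, 1 to 3 for type in spleen, 1 to 3 for heart against kidney, 1 to 5 for the interaction and 0 to 2 for kidney against liver of the 7 genes and 4 to 213 for type in lung, 41 to 6179 for type in spleen and 963 to 5542 for the interaction of all genes. Over all alternatives the number of all genes called for type ran from 0 to 2162 in heart (against 5), 0 to 336 in kidney (against 1), 1 to 422 in liver (against 2) and 1 to 2854 over the mean of tissues (against 3). Signs changed without 1 animal for KLRG1 (type in lung, -0.30 without S0276, range -0.30 to 0.89), NCTR1 (lung against liver, -0.048 without S0235 and -0.0037 without S0355, range -0.048 to 0.15), NKG7 (type in kidney, -0.061 without S0276, range -0.061 to 1.01) and SLAF7 (heart against kidney, 0.00034 without S0276 and 0.0016 without S0355, range -0.029 to 0.0016). The animal as replicate block called TBX21 between kidney and liver (adjusted p = 0.0358), and without it KLRG1 lost its interaction (0.0738). TBX21 was called for type in spleen (0.0331) when all libraries were put in 1 fit with the block. There the part of the block was not separated from that of the joint fit. These settings changed no other call of the 7 genes. The cause of these changes was not tested. TPM carry no depth, and 3 of the 7 genes in lung and 4 or more in heart, kidney and liver lay below 1 TPM, where no test of type was made.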

Other observations

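Genes around the 7 had higher means in ET-type than in L-type hearts, the opposite sign to spleen and lung, with none called by limma. Over all genes the median difference had the same signs, at 0.090 in heart, -0.47 in spleen and -0.15 in lung, and 12218 of 21014 genes lay above 0 in heart, where 22.2% had an unadjusted p below 0.05. Of 48 genes of the 7 lists tested in heart, 42 had a difference above 0, and 29 of the 30 with an unadjusted p below 0.05 were higher in ET-type, among them SRGN with 1.34 (0.0863), RB27A with 1.02 (0.0909), FCG3A with 1.003 (0.114) and ITA1 with 0.79 (0.0966), log2 differences with the adjusted p in parentheses. CATC was the exception, with -0.62 (0.113). In spleen 5 of 85 and in lung 10 of 80 such genes had a difference above 0, beside 3158 of 24007 and 10228 of 29139 of all genes. Haemoglobin HBA (2.57, 0.0863) and HBB (3.15, 0.0863) were also higher in the means of ET-type hearts and the muscle markers MYL3 (-1.26, 0.108) and MYH7 (-1.12, 0.127) lower, and their part was not tested. Of the 7 genes NKG7 alone was tested there, with -0.21 ± 0.23, adjusted p = 0.623.

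TBX21 exceeded EOMES in 10 of 10 spleens, 10 of 10 hearts and 9 of 10 lungs, but in 1 of 10 livers. In kidney it did so in 8 of 10 libraries, S0235 among the others.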
